A study of Rattus norvegicus with 12 samples.

Results

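Acta2, Des and Vim, which encode smooth muscle α-actin, desmin and vimentin, were followed by messenger RNA sequencing of rat urethral tissue. They were chosen by Ensembl gene identifier: ENSRNOG00000058039 for Acta2, ENSRNOG00000019810 for Des and ENSRNOG00000018087 for Vim. All 3 of these genes were found among the 32623 genes of the deposited table, and all 3 passed the filter on low counts. The pairing of identifier and symbol came with the choice of genes, because neither the table nor the rat gene annotation at hand pairs them. Tissue came from male rats in 4 groups of 3 libraries. Sham rats had no urethral injury, injury rats had a mechanical injury of the urethra, and the remaining groups had the same injury followed by rapamycin, an inhibitor of the mTOR kinase, or by a tetrahedral DNA nanostructure (TDN), a particle folded from synthetic DNA strands. The sources used here give neither strain nor age, and no dose, route or harvest time. Whether vehicle was given to the injury group is not stated for these samples. The stated aim was to compare expression among the groups after injury and after TDN.

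Actins build the thin filaments on which myosin pulls, and smooth muscle α-actin is the form typical of smooth muscle and of myofibroblasts, the contractile fibroblasts of healing wounds. Desmin and vimentin are related proteins of the intermediate filaments, the cytoskeletal system that gives a cell its mechanical strength. Desmin links the contractile apparatus of smooth, striated and cardiac muscle, whereas vimentin is the filament of fibroblasts, endothelium and leukocytes and is also made by many smooth muscle cells. The urethral wall holds a smooth muscle layer and, in the male, a striated sphincter around it, so desmin RNA can come from either kind of muscle. In whole tissue, fewer cells of a type and less RNA per cell cannot be told apart.

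The regions before the annotated starts of the 3 genes are printed here so that the control region of a contractile gene can be read beside those of its intermediate filament neighbours. They are the 250 bases upstream of the start, 5′ to 3′, from RefSeq on build GRCr8, in which all 3 symbols were matched. The Acta2 stretch is chr1:241172504-241172753 on the minus strand, the Des stretch chr9:84299376-84299625 on the plus strand, and the Vim stretch chr17:81577011-81577260 on the plus strand. The counts come from another build, and these positions were not used with them. Capitals mark CArG boxes in which 1 of the 6 inner bases is C or G, TATAAA or TATATAA, and CCAAT on either strand.
Acta2: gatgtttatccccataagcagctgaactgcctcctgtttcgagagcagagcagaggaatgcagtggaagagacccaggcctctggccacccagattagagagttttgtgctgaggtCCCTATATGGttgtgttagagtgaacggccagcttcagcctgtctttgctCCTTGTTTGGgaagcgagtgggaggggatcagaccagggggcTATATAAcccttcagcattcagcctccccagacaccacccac
Des: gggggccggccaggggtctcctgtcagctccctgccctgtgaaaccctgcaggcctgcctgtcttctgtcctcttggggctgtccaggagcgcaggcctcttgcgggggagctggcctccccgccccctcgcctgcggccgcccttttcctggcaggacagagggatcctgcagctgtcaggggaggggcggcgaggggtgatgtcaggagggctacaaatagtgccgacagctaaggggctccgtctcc
Vim: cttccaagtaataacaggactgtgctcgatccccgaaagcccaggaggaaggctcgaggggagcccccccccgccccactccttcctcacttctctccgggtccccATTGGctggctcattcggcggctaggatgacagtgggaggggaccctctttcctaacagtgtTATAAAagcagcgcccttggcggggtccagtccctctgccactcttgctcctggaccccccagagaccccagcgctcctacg

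The CArG box is the DNA element bound by serum response factor, the transcription factor through which many contractile genes are switched on. The Acta2 stretch held CCCTATATGG, at 134 to 125 bases before the start, and CCTTGTTTGG, at 84 to 75 bases before it. At least 1 CArG box with such a substitution was found in 6.84% of 33469 rat stretches of the same length, and at least 2 in 0.43%. A CArG box with only A and T inside, found in 1.5% of the stretches, was not among the letters of the 3 windows. TATATAA on the sense strand lay 42 to 36 bases before the Acta2 start (2.30% of all stretches), and TATAAA on the sense strand lay 82 to 77 bases before the Vim start (8.06%). The Vim stretch also held CCAAT, read on the opposite strand as ATTGG (34.0% of all stretches on either strand). The Des stretch held none of these motifs. It held GGGCGG on either strand at 3 places (30.5% of all stretches held it at least once) and CANNTG at 1 place, as CAGCTG (65.5%). GGGCGG, read as CCGCCC, also lay 180 to 175 bases before the Vim start, and CAGCTG 232 to 227 bases before the Acta2 start. The share of G and C was 54.0% for Acta2, 68.8% for Des and 62.4% for Vim, beside a median of 51.2% over all stretches. Such matches describe letters and are not evidence of binding.

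The libraries held 44765817 to 55928721 counts, and levels are given as CPM (counts scaled to a common library total) after TMM scaling, a correction that sets the bulk of genes level between libraries. Rapamycin replicate 2 stood apart, with the lowest total and a TMM factor of 0.660, where the other libraries had 0.873 to 1.13. Separate animals are not named for the libraries within a group, so the p-values speak only for the variation among these libraries, part or all of which could be technical. Counting error was small beside the spread between libraries. The fewest counts of any of the 3 genes in any library, 5194 for Des in sham replicate 3, gave 102 CPM before TMM scaling, with a 95% Wilson interval of 99.6 to 105 CPM that covers counting error only.

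Over the 6 comparisons of groups, 0 of the 18 tests of Acta2, Des and Vim passed the quasi-likelihood test of edgeR at an adjusted p under 0.05, and 2 had an unadjusted p under 0.05, both for Acta2. DESeq2 called 1 of the 18 and limma voom called 0. Among all 17521 genes tested, edgeR called 0.651% between injury and sham and 12.3% between rapamycin and sham. Its unadjusted p was under 0.05 for 3820 genes between injury and sham and for 6909 between rapamycin and sham. In each of the other 4 comparisons edgeR called 0% of genes. Unadjusted p under 0.05 was reached there by 930 genes between TDN and sham, 767 between rapamycin and injury, 1074 between TDN and injury and 4260 between TDN and rapamycin. DESeq2 called 314, 30, 44 and 1710 genes in these comparisons and limma voom 0 in each.

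**Figure D1:**
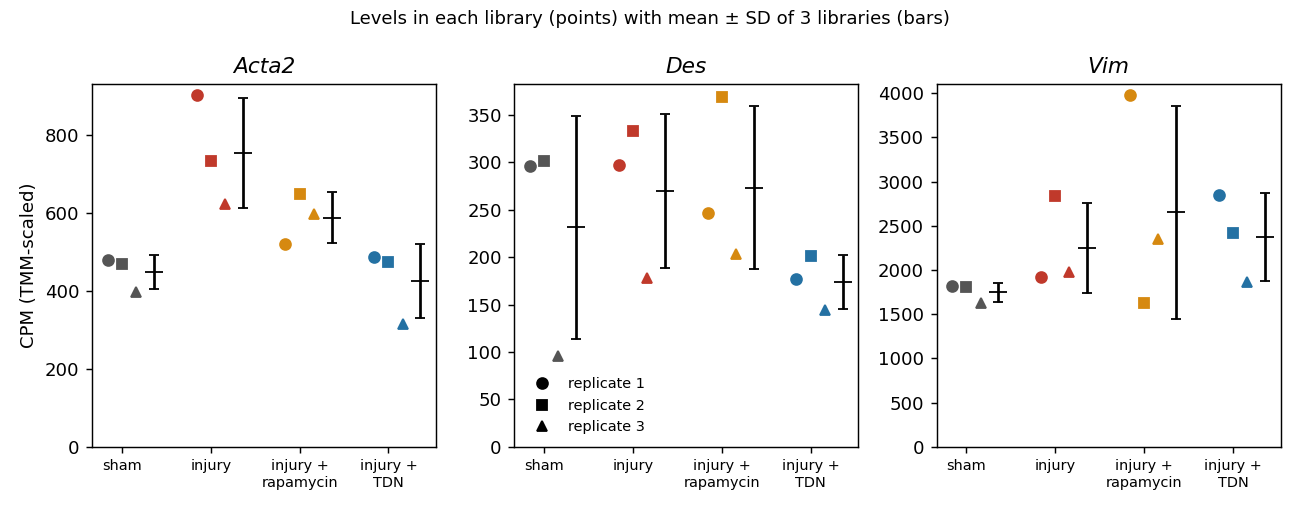
TMM-scaled CPM of Acta2, Des and Vim (vertical axes from 0, one panel per gene) in the 12 libraries by group, with replicate shown by symbol and mean ± SD of 3 libraries as bars. The 3 injury libraries lie above all sham and TDN libraries for Acta2, and sham replicate 3 lies far below the other sham libraries for Des.

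Acta2, the contractile actin, was at 479, 469 and 399 CPM in sham replicates 1 to 3 and at 904, 735 and 623 CPM in injury replicates 1 to 3. It was at 521, 649 and 597 CPM in the rapamycin libraries and at 488, 474 and 315 CPM in the TDN libraries. Reads that fit several actin genes may be part of these counts, since the counting rule is not stated. All 3 injury libraries lay above all sham and all TDN libraries, while injury and rapamycin overlapped, as did TDN and sham. The libraries of rapamycin and injury were free of overlap for 3.94% of all tested genes. The order of the group means was injury at 754 ± 141 CPM, rapamycin at 589 ± 65 CPM, sham at 449 ± 44 CPM and TDN at 425.5 ± 95.7 CPM (SD, n = 3 each).

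Between injury and sham the fold for Acta2 was 1.68 (log2 fold change 0.75, SE 0.23, 95% interval 0.24 to 1.26, edgeR adjusted p = 0.120, unadjusted p = 0.00799). Absolute changes smaller than this were found for 58.6% of the tested genes, so that it was a middling change among them. The libraries of these groups did not overlap for 42.3% of all tested genes, which sets the scale for the separation of Acta2 (41.9% by library size alone). The call depended on the setting. DESeq2 gave an adjusted p of 0.0292 (log2 fold change 0.74), with 11% of genes called. The edgeR adjusted p was 0.0440 without the rapamycin group (0.80, 15.1% of genes called), 0.0448 without rapamycin replicate 2 (0.80, 11%) and 0.0473 without injury replicate 3 (0.87, 11.9%). Over all 20 alternatives the adjusted p ranged from 0.0292 to 0.403 and the log2 fold change from 0.60 to 0.87.

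TDN tissue had 0.564 times the Acta2 level of injury tissue (log2 fold change -0.82, SE 0.23, 95% interval -1.33 to -0.32, edgeR adjusted p = 0.649, unadjusted p = 0.00447). This was the lowest unadjusted p among the 18 tests. A smaller absolute change was found for 76.2% of tested genes, and 19.5% of genes had groups without overlap (18% by library size alone). Adjusted p-values ranged from 0.129 to 0.990 over 20 alternatives, none of which called the gene, with log2 fold changes of -0.95 to -0.65. TDN and sham differed by a log2 fold change of -0.08 in Acta2 (SE 0.23, 95% interval -0.58 to 0.43, edgeR adjusted p = 1). Both comparisons of TDN are read beside injury libraries or sham libraries that also enter the comparison of injury with sham, so their values are not independent of it.

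Rapamycin tissue had an Acta2 fold of 1.31 over sham (log2 fold change 0.39, SE 0.23, edgeR adjusted p = 0.212) and of 0.781 over injury (log2 fold change -0.36, SE 0.23, edgeR adjusted p = 0.902). The rapamycin libraries did not overlap with sham, as for 52.3% of all tested genes, or with TDN, as for 38.5%. Between TDN and rapamycin the log2 fold change was -0.47 (SE 0.23, 95% interval -0.98 to 0.04, edgeR adjusted p = 0.225), which was -0.29 without TDN replicate 3 and -0.15 by library size alone. Rapamycin against injury was -0.21 without injury replicate 1 and -0.56 by library size alone, and rapamycin against sham was 0.05 by library size alone. Relative to the median of all genes, Acta2 in rapamycin against sham was 0.44 with TMM and 0.42 by library size alone. In the same order it was -0.51 and -0.49 for TDN against rapamycin, and -0.32 and -0.33 for rapamycin against injury. The separations of rapamycin libraries from sham and from TDN depended on the scaling. With CPM by library size alone, Acta2 in rapamycin was 454, 429 and 640 CPM, which overlapped with 513, 532 and 428 CPM in sham and 496, 520 and 354 CPM in TDN. On that scale the rapamycin libraries lay instead below all injury libraries, at 824, 732 and 681 CPM, as for 4.33% of genes without overlap. The positions of injury above sham and above TDN were the same on both scales.

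**Figure D2:**
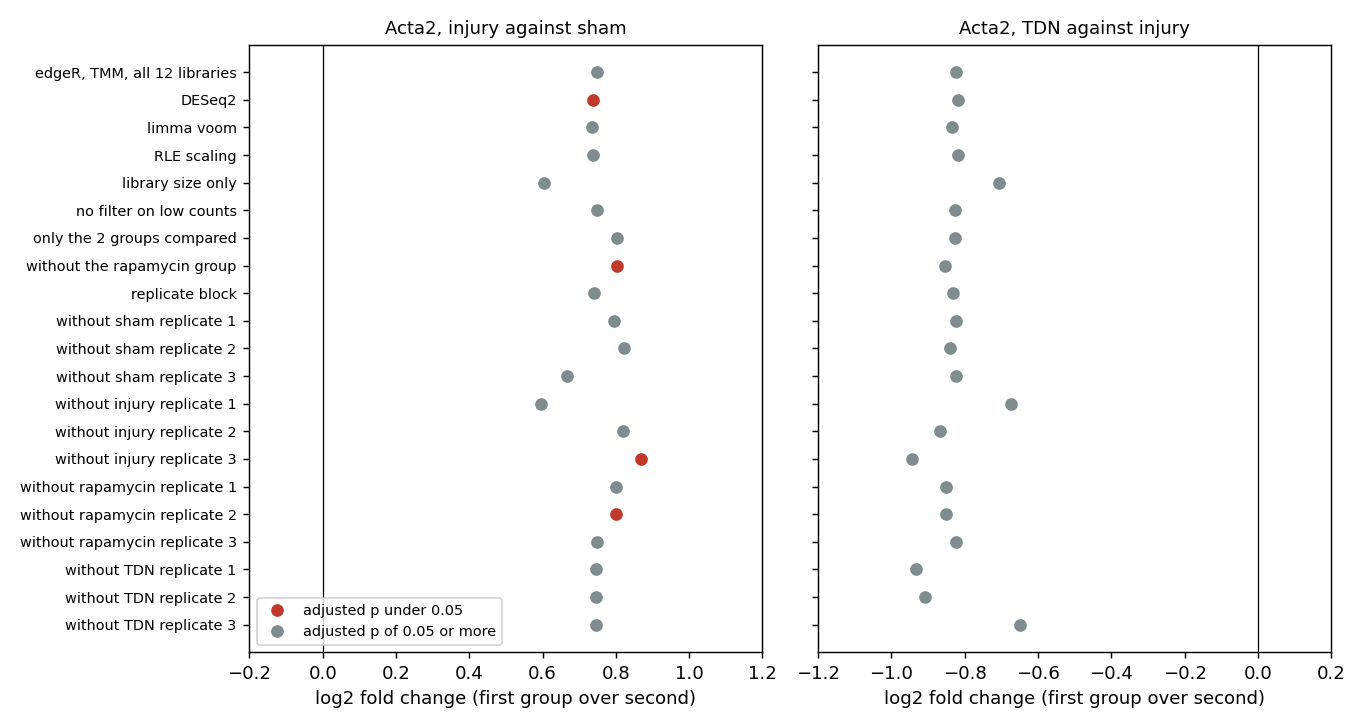
Log2 fold change of Acta2 (horizontal axes) for injury against sham and for TDN against injury under each way of processing the counts (rows), with adjusted p under 0.05 in red. All values for injury against sham lie between 0.60 and 0.87 and 4 of them are called, and all values for TDN against injury lie between -0.95 and -0.65 with none called.

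Des, the muscle intermediate filament, was at 297, 302 and 95.4 CPM in sham replicates 1 to 3 and at 298, 334 and 178 CPM in injury replicates 1 to 3. Rapamycin libraries held 246.5, 369.5 and 204 CPM, and TDN libraries 177, 201 and 144 CPM. The sham group was the most spread, with a ratio of 3.17 between its highest and lowest library, and sham replicate 3 was the lowest of all 12 libraries. The SD of log2 CPM in sham was 0.95 for Des, larger than for 93.0% of tested genes, where the median was 0.17.

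The group means of Des were 273 ± 86 CPM in rapamycin, 270 ± 81 CPM in injury, 231 ± 118 CPM in sham and 174 ± 29 CPM in TDN (SD, n = 3 each). Neighbours in this order overlapped in each case. Of the 6 pairs of groups, TDN and rapamycin were the only ones whose libraries did not overlap, at 144 to 201 CPM against 204 to 369.5 CPM, as for 38.5% of all tested genes. By library size alone this pair overlapped too, at 162 to 221 CPM against 215 to 244 CPM. The log2 fold change was -0.65 between TDN and rapamycin (SE 0.42, 95% interval -1.58 to 0.28, edgeR adjusted p = 0.309). It was -0.39 without rapamycin replicate 2 and -0.27 by library size alone.

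Between injury and sham Des had a log2 fold change of 0.22 (SE 0.42, 95% interval -0.70 to 1.15, edgeR adjusted p = 0.745), which was -0.15 without sham replicate 3, 0.45 without injury replicate 3 and 0.07 by library size alone. TDN gave -0.63 against injury (SE 0.42, 95% interval -1.56 to 0.29, edgeR adjusted p = 0.649) and -0.41 against sham (SE 0.42, 95% interval -1.34 to 0.51, edgeR adjusted p = 1). The latter was -0.78 without sham replicate 3, -0.19 without sham replicate 1 and -0.15 without sham replicate 2. For rapamycin the log2 fold change was 0.24 against sham (SE 0.42, edgeR adjusted p = 0.670) and 0.02 against injury (SE 0.42, 95% interval -0.91 to 0.94, edgeR adjusted p = 0.994). These became -0.17 and -0.24 by library size alone, and 0.01 and -0.26 without rapamycin replicate 2. The intervals of Des were the widest of the 3 genes in all 6 comparisons.

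Vim, the mesenchymal intermediate filament, was the steadiest of the 3 genes in sham, at 1814, 1803 and 1626 CPM in replicates 1 to 3. Injury libraries held 1926, 2833 and 1976 CPM, and TDN libraries 2851, 2414 and 1860 CPM. Each of these 6 libraries lay above all 3 sham libraries, the nearest by a narrow margin. Groups without overlap were found for 42.3% of all tested genes between injury and sham. Rapamycin libraries held 3982, 1623 and 2349 CPM, the highest and the lowest value of Vim among the 12 libraries. The lowest was in replicate 2, the library that stood apart, and the ratio of highest to lowest within rapamycin was 2.45.

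Mean Vim levels were 2651 ± 1208 CPM in rapamycin, 2375 ± 497 CPM in TDN, 2245 ± 510 CPM in injury and 1748 ± 105 CPM in sham (SD, n = 3 each). The 3 injured groups overlapped with each other. The log2 fold change over sham was 0.36 in injury (SE 0.33, 95% interval -0.36 to 1.08, edgeR adjusted p = 0.492), 0.60 in rapamycin (SE 0.33, 95% interval -0.12 to 1.32, edgeR adjusted p = 0.184) and 0.44 in TDN (SE 0.33, 95% interval -0.28 to 1.16, edgeR adjusted p = 1). All 3 values were positive under each alternative run, from 0.20 to 0.91 in rapamycin, and the sham libraries enter all 3 of them. Without rapamycin replicate 1 the rapamycin value was 0.20 (edgeR adjusted p = 0.610), and without rapamycin replicate 2 it was 0.91 (edgeR adjusted p = 0.0799). It was 0.30 by library size alone. The injury value was 0.21 without injury replicate 2 and 0.23 by library size alone, and the TDN value was 0.29 without TDN replicate 1.

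The libraries of TDN and sham did not overlap for 32.6% of all tested genes, Vim among them. By library size alone every TDN library was above every sham library for Vim, at 2087 to 2898 CPM against 1744 to 2044 CPM (30.5% of genes without overlap), whereas injury, at 1757 to 2819 CPM, overlapped with sham. Among the injured groups the log2 fold change of Vim was 0.24 for rapamycin against injury (SE 0.33, edgeR adjusted p = 0.907), 0.08 for TDN against injury (SE 0.33, 95% interval -0.64 to 0.80, edgeR adjusted p = 0.920) and -0.16 for TDN against rapamycin (SE 0.33, edgeR adjusted p = 0.745). Each of these 3 changed sign under at least 1 alternative.

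**Figure D3:**
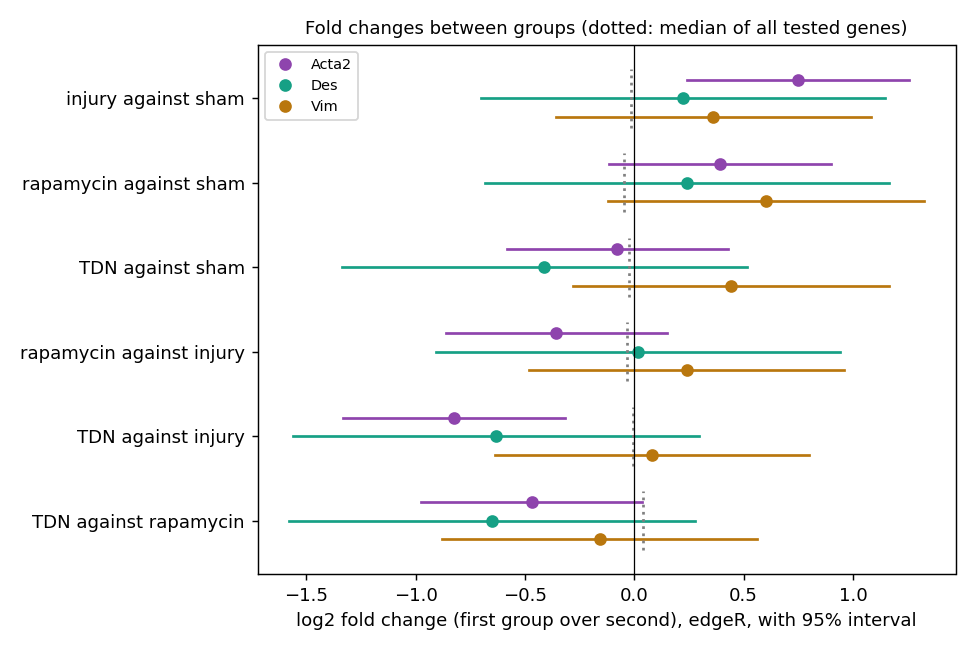
Log2 fold changes (horizontal axis, first group over second) of Acta2, Des and Vim in the 6 comparisons of groups, with 95% intervals from the edgeR fit and the median of all tested genes as a dotted line. Only the intervals of Acta2 for injury against sham and for TDN against injury lie away from 0, before adjustment for the number of genes.

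A ratio of counts of a pair of genes within a library does not depend on how libraries are scaled. Vim counts per Acta2 count were 3.78, 3.84 and 4.08 in sham replicates 1 to 3 and 2.13, 3.85 and 3.17 in injury replicates 1 to 3. They were 7.65, 2.50 and 3.93 in rapamycin and 5.85, 5.10 and 5.90 in TDN. All TDN libraries lay above all sham and all injury libraries, and the rapamycin libraries lay on both sides of them. Such separation was not counted for other pairs of genes, here or for the ratios below. As single genes, Acta2 separated TDN from injury, like 19.5% of tested genes, and Vim separated TDN from sham, like 32.6%. The ratio was 1.89 times as high in TDN as in injury and 1.44 times as high as in sham, by geometric means (exact two-sided permutation p = 0.1 for both, the smallest that 3 against 3 libraries allow; adjusted over 18 pairs p = 0.6). Leaving out any 1 library of the groups compared kept the first of these between 1.60 and 2.15 and the second between 1.40 and 1.51. Only pairs of groups without overlap were treated in this way, so the direction could not change and only the size could.

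Over the 4 groups, 42.6% of the squared deviation of the log2 ratio of Vim to Acta2 lay between groups (exact permutation p = 0.2001 over 15400 partitions, adjusted over 3 ratios p = 0.600). The rapamycin libraries bear on this test. Leaving out rapamycin replicate 1 gave a share of 70.2% (exact permutation p = 0.0294). Leaving out rapamycin replicate 2 gave 64.7% (exact permutation p = 0.0402). Those libraries held the highest and the lowest ratio of the rapamycin group, so that leaving either out narrows the spread within it. Leaving out any other library gave shares of 32.7 to 49.6% (exact permutation p from 0.171 to 0.398). None of these p-values is adjusted for the 3 ratios or for the choice of the library left out.

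Des counts per Acta2 count were 0.619, 0.644 and 0.239 in sham, 0.330, 0.454 and 0.286 in injury, 0.473, 0.569 and 0.341 in rapamycin and 0.363, 0.424 and 0.457 in TDN. The groups overlapped in all 6 pairs, and 13.2% of the squared deviation lay between groups (exact permutation p = 0.744). Without sham replicate 3 this was 61.1% (exact permutation p = 0.0854), and the remaining sham libraries were the highest of all. Des counts per Vim count were lower in every TDN library (0.0621, 0.0833 and 0.0775) than in every injury library (0.155, 0.118 and 0.0901), with a fold of 0.625 by geometric means (exact two-sided permutation p = 0.1, the smallest possible, adjusted over 18 pairs p = 0.6). Over the 4 groups 19.6% of the squared deviation of this ratio lay between groups (exact permutation p = 0.609). The share was 42.7% without sham replicate 3 (exact permutation p = 0.258) and 38.3% without rapamycin replicate 2 (exact permutation p = 0.299).

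**Figure D4:**
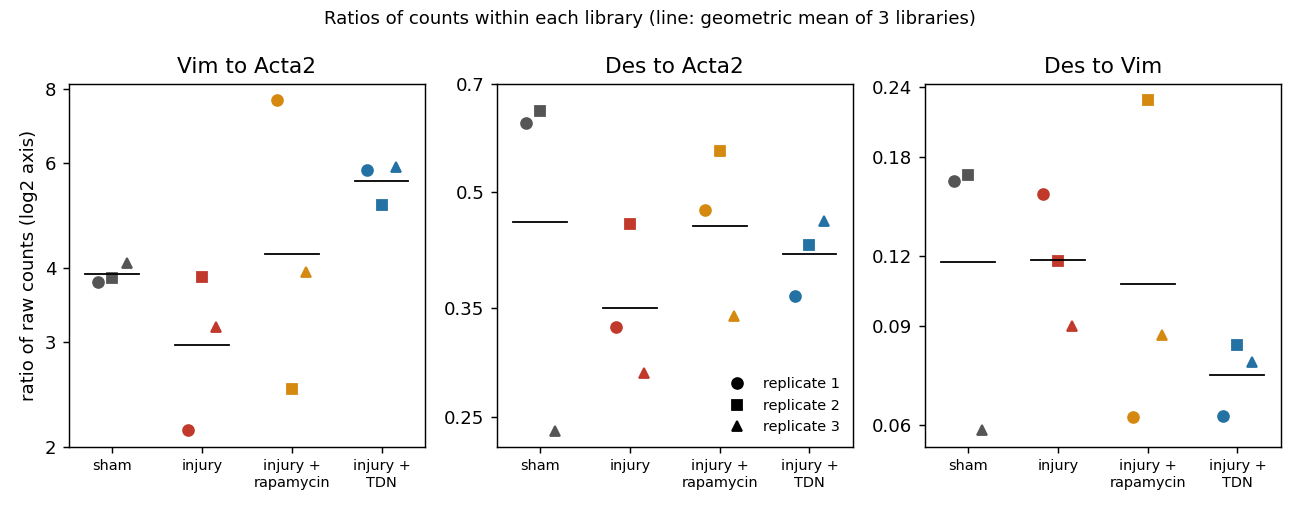
Ratios of raw counts within each library (log2 vertical axes) by group, with replicate shown by symbol and the geometric mean of 3 libraries as a line. The ratio of Vim to Acta2 in TDN, at 5.10 to 5.90, lies above sham and injury, and sham replicate 3 is the lowest library for both ratios that hold Des.

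Acta2 and Des were then followed over the 12 libraries to ask whether the muscle genes moved together. Pearson's r of their log2 CPM was 0.633 (permutation p = 0.0272, adjusted over 3 pairs p = 0.0815) and Spearman's rho 0.608 (permutation p = 0.0391, adjusted p = 0.117). Without injury replicate 1 and TDN replicate 3, the libraries farthest from the median of Acta2, r was 0.582. By library size alone r was 0.497 (permutation p = 0.0986). Deviations from the group means gave r = 0.598, a value close to that over all libraries, which was not tested. Within groups, Des was lowest in the library numbered 3 in 4 of 4 groups and Acta2 in 3 of 4, and these libraries enter that value. For Acta2 and Vim r was 0.138 (permutation p = 0.660, rho 0.252, permutation p = 0.428), and for Des and Vim it was 0.111 (permutation p = 0.724, rho -0.133, permutation p = 0.680). Without the 2 libraries farthest from the median of the first gene these were 0.199 and 0.023.

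**Figure D5:**
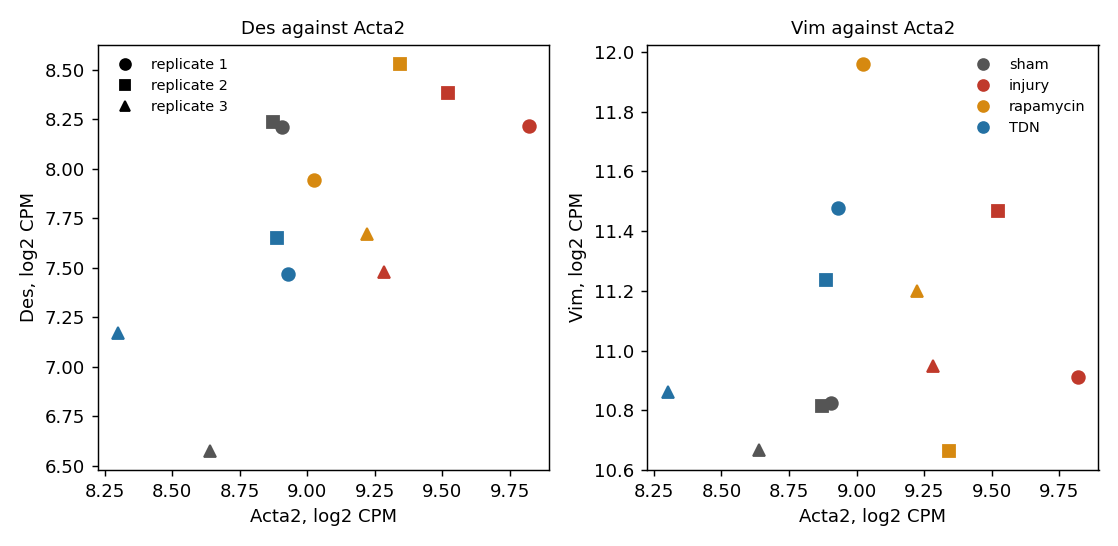
Log2 CPM of Des and of Vim (vertical axes) against log2 CPM of Acta2 (horizontal axes) in the 12 libraries, coloured by group with replicate shown by symbol. Des tends to be higher where Acta2 is higher (r = 0.633), and Vim shows little relation to Acta2 (r = 0.138).

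Among 11871 other tested genes with a mean of at least 5 CPM, 25 reached r of 0.8 or more with Acta2, 17 with Des and 39 with Vim over the 12 libraries. The median r over those genes was 0.025 for Acta2, -0.005 for Des and 0.023 for Vim. ENSRNOG00000025189 was the most like Acta2 (r = 0.921, rho = 0.944), with 3.73 ± 0.48 CPM in sham, 6.56 ± 0.93 CPM in injury, 5.73 ± 0.78 CPM in rapamycin and 4.08 ± 0.62 CPM in TDN (SD, n = 3 each). ENSRNOG00000003998 was the most like Des (r = 0.942, rho = 0.930), with its lowest sham library at 2.59 CPM and its highest at 9.72 CPM. ENSRNOG00000015310 was the most like Vim (r = 0.885, rho = 0.923). Its sham libraries were at 40.0 to 50.1 CPM and its injury libraries at 54.5 to 56.2 CPM. Rapamycin libraries held 41.5 to 93.3 CPM of it and TDN libraries 51.7 to 81.4 CPM. Each of these genes was chosen for its correlation over the same libraries. Levels and a spread like those of Acta2, Des or Vim are favoured by that choice and are not separate evidence. By rank correlation another gene came first for each of the 3. Acta2 stood at place 578 among the genes most like Des, and Des at place 1203 among those most like Acta2. These correlations are descriptions over libraries that share groups and scaling, and the files do not pair these identifiers with symbols.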

How the data were processed

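Poly(A)-enriched libraries were sequenced from both fragment ends, per the labels' protocols. The authors deposited raw counts per gene with 1 column per library; the genome build was Rnor 6.0, per the submitters' processing notes. The sources used here name no aligner, counting program, annotation release or strand setting. Actin genes have near-identical coding sequences, so Acta2 counts are uncertain as far as reads were shared with other actins. Of 15 library columns, 12 matched labelled samples and 3 were not used.

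The counts of all 12 libraries were fitted with edgeR 4.0.16 in R 4.3.3: TMM scaling, filterByExpr on the groups (17521 of 32623 genes kept), 1 coefficient per group, and the quasi-likelihood test with Benjamini-Hochberg adjustment within a comparison (threshold 0.05). The fit was tested on simulated data. SE is the absolute log2 fold change over the square root of F, and 95% intervals use it. Totals were 44765817 to 55928721. After TMM scaling 3 counts equal 0.0526 to 0.102 CPM. Log2 CPM used a prior count of 2. Correlations used 100000 resamples (SciPy 1.17.1), and count ratios exact permutation tests.

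The named genes were the 3 members and, for each, the tested gene with the highest Pearson correlation over 12 libraries and a mean of at least 5 CPM. A list of further smooth muscle and cytoskeleton genes and the cell type markers were set by symbol; the gene table (47357 rat genes, GRCr8) matched 0 of the file's identifiers, so none of them was evaluated. The genes, lists and tests were chosen with earlier results of these data known. Alternatives were DESeq2 1.42.0, limma 3.58.1 voom, other scalings, no filter, fewer groups, the replicate number as a block, and fits without each library in turn. Overlap of groups in CPM by library size alone, and ratios of group pairs without single libraries, were added after the values were seen. Same-numbered libraries of sham and injury deviated together in all 3 pairs (correlations 0.107, 0.138 and 0.261). The labels do not state this pairing. Between rapamycin and injury the correlations were also all positive, at 0.092, 0.156 and 0.55. Between TDN and sham they were all negative, at -0.107, -0.057 and -0.243, and each remaining comparison had both signs. Libraries with different numbers were not compared in this way, so these values do not show whether the numbers pair libraries.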

Additional observations from a re-analysis of the deposited data

How the results depend on the processing

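Of 351 member values under alternatives, 333 kept their direction and their side of the threshold, 14 changed sign and 4 became called. The 4 were Acta2 for injury against sham, with log2 fold changes of 0.74 in DESeq2, 0.80 without the rapamycin group, 0.80 without rapamycin replicate 2 and 0.87 without injury replicate 3. By library size alone the median of all genes moved from -0.05 to -0.37 for rapamycin against sham, from -0.03 to -0.22 for rapamycin against injury, from 0.04 to 0.34 for TDN against rapamycin, from -0.01 to -0.14 for injury against sham and from -0.004 to 0.10 for TDN against injury. On that scale Des turned to -0.17 (rapamycin against sham) and -0.24 (rapamycin against injury), and Vim to 0.11 (TDN against rapamycin). Relative to the median of all genes these were 0.20, -0.02 and -0.23, beside 0.29, 0.05 and -0.20 with TMM.

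Leaving out 1 library changed the sign of small changes. For Des, injury against sham was -0.15 and rapamycin against sham -0.14 without sham replicate 3. Rapamycin against injury was -0.26 without rapamycin replicate 2, -0.21 without injury replicate 3 and -0.0033 without sham replicate 2. For Acta2, TDN against sham was 0.10 without TDN replicate 3. For Vim, TDN against injury was -0.07 without TDN replicate 1, and it was -0.02 and -0.0024 when injury replicate 1 or 3 was left out. Without rapamycin replicate 1, Vim was -0.21 for rapamycin against injury and 0.27 for TDN against rapamycin. The cause was not tested.

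Over the libraries left out, TDN against injury for Vim ranged from -0.0704 to 0.26. Acta2 ranged from 0.60 to 0.87 for injury against sham and from -0.19 to 0.10 for TDN against sham. Des ranged from -0.15 to 0.49 for injury against sham, from -0.14 to 0.49 for rapamycin against sham and from -0.26 to 0.19 for rapamycin against injury. Vim ranged from -0.21 to 0.50 for rapamycin against injury and from -0.44 to 0.27 for TDN against rapamycin. Acta2 also ranged from 0.31 to 0.48 for rapamycin against sham, from -0.48 to -0.21 for rapamycin against injury and from -0.58 to -0.29 for TDN against rapamycin. Des ranged from -0.78 to -0.15 for TDN against sham and from -0.82 to -0.39 for TDN against rapamycin. The share between groups ranged from 32.7 to 70.2% for Vim to Acta2, from 5.12 to 61.1% for Des to Acta2 and from 10.9 to 42.7% for Des to Vim.

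With the replicate number as a block no call of the 3 genes changed. The blocked log2 fold change was 0.74 for Acta2 in injury against sham (edgeR adjusted p = 0.0981) and 0.30 for Des (edgeR adjusted p = 0.484). Des in TDN against injury was -0.58 with the block (SE 0.27, edgeR adjusted p = 0.510), where the SE was 0.42 without it. In TDN against rapamycin Des was -0.61 with the block (SE 0.27, edgeR adjusted p = 0.170), again beside an SE of 0.42. The block called 76 genes between injury and sham beside 114 without it. That number was 1924 in DESeq2, 162 in voom, 169 by library size alone, 0 with only the 6 libraries compared, and 0 to 2117 when 1 library was left out. Between TDN and sham, where edgeR called 0 genes, a fit of only the 6 libraries called 993. Between rapamycin and sham the number was 2162, beside 5763 in DESeq2, 34 with only the 6 libraries, and 1 to 7249 when 1 library was left out. Between TDN and rapamycin it was 0, beside 4788 without rapamycin replicate 3.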

Other observations

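Des was lowest in the library numbered 3 in 4 of 4 groups, at 95.4 CPM in sham, 178 CPM in injury, 204 CPM in rapamycin and 144 CPM in TDN. By library size alone this held in 3 of 4 groups. Acta2 was lowest in the library numbered 3 in 3 of 4 groups and Vim in 2 of 4. The share of all genes with such a pattern was not counted, so it cannot be called particular to Des. The labels do not say that a number is shared by libraries prepared together, and the pattern was noticed after the values were seen.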
